A study of Mus musculus with 2 samples.

Results

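Proteins that hepatocytes secrete are folded in the endoplasmic reticulum (ER), and a set of 32 genes for ER folding and the unfolded protein response (UPR) was followed in a pair of mouse liver sections. Members were chosen by symbol for their known roles, and heat shock (Hsp) and Dnaj genes were left out. They were ordered into 5 branches, namely stress sensors with their transcription factors, folding enzymes and chaperones, ER-associated degradation (ERAD), targets of the transcription factor ATF4, and the machinery that moves proteins into the ER. Of the 32 genes, 31 had a row among the 19465 genes counted, and Pdia6 was not analysed here. Levels are given in CPM, counts of a gene scaled by the total of its library. A mean of at least 10 CPM over both libraries was reached by 26 members, out of 6933 genes in all. The members under that minimum were Eif2ak3, Derl3, Trib3, Asns and Chac1.

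Unfolded proteins in the ER lumen activate the membrane sensors IRE1α, PERK and ATF6. IRE1α, encoded by Ern1, splices Xbp1 mRNA so that it encodes an active transcription factor. ATF6 is cut in the Golgi and its released part enters the nucleus, and together XBP1 and ATF6 raise chaperones and ERAD genes. PERK, encoded by Eif2ak3, phosphorylates the initiation factor eIF2α, which slows general translation and favors translation of Atf4. ATF4 targets serve amino acid supply, redox balance and, through CHOP, cell death, and other eIF2α kinases feed the same arm when amino acids or heme run short. Hepatocytes carry a large rough ER because they make most plasma proteins, and XBP1 is also known there for its effect on lipid synthesis.

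The sections came from littermates aged 27 weeks, 1 AEG-1ΔMAC mouse (AEG-1DMAC in the labels) and 1 AEG-1fl/fl mouse. Both carry floxed alleles of the AEG-1 gene (Mtdh), and in AEG-1ΔMAC mice a Cre expressed from the Lyz2 locus deletes the gene in myeloid cells only, so hepatocytes keep it. The labels give a high fat and high sugar diet from week 7, whereas the description of the spatial experiment gives the control diet, and the diet of these sections was not settled here. Each genotype had 1 library of spots, each spot covering several cells, so no test between genotypes was possible, and all intervals below are 95% and cover counting error only.

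After filtering, 2140 AEG-1ΔMAC spots held 45453286 unique molecular identifiers (UMIs) and 2540 AEG-1fl/fl spots held 50322850. Mtdh itself stood at 66.3 and 60.2 CPM. Hepatocyte RNA dominated both sections, and Alb alone took 87957 CPM in AEG-1ΔMAC against 141947 CPM in AEG-1fl/fl. The median gene had a log2 ratio of CPM of 0.15, AEG-1ΔMAC over AEG-1fl/fl. All genotype ratios below were therefore taken relative to that median gene, and 0 means no difference from it. Because probes of different genes bind unequally, levels were compared between libraries and not between genes. In sums over a section, fewer cells of a type and less RNA per cell cannot be told apart. Genes of the circadian clock also differed: 5 of 6 evening-phase genes with at least 10 CPM were at least 1.5-fold higher in AEG-1ΔMAC (median relative log2 ratio 1.20), and 3 of 5 morning-phase genes were at least 1.5-fold lower (median -0.74). Of all genes with at least 10 CPM, 2.38% were higher and 2.77% lower by that size. The part of the sampling hour in the values below was not tested.

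The branches are known to be controlled through short response elements in promoters, and the stretches of the members that hold them are printed here. RefSeq promoter windows of GRCm38.p6, from 250 bases before to 50 bases after the start site, were at hand for 24 of the 31 members and for 27025 genes in all. The ER stress response element (ERSE), searched as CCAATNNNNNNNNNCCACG on both strands, is bound by ATF6 and XBP1 together with NF-Y. It was in the windows of Calr, Canx, Creld2, Derl3 and Syvn1, 5 of the 24 members, and in 0.137% of all genes. ERSE-II, searched as ATTGGNCCACG, was in the window of Herpud1 and in 0.0444% of all genes. TGACGTG, a core of the XBP1 element, was in no member's window and in 2.22% of all genes. The composite element that ATF4 binds with C/EBP partners (CARE), searched as TGATGNAA, was in Asns, Chac1, Trib3 and Herpud1 and in 4.51% of all genes. A match describes the letters of a window and is not evidence of binding in these livers. In the sequences that follow, read 5′ to 3′ on the strand of the gene, capitals mark the matched element.
Calr, chr8:84847055-84847113, minus strand, ERSE: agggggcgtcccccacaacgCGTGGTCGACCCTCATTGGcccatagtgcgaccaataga
Canx, chr11:50325780-50325838, minus strand, ERSE: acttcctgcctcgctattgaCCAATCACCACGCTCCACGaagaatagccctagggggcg
Creld2, chr15:88819500-88819558, plus strand, ERSE: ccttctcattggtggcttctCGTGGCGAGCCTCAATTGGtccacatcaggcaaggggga
Derl3, chr10:75893222-75893280, plus strand, ERSE: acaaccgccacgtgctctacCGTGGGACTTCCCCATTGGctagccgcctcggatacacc
Syvn1, chr19:6046512-6046570, plus strand, ERSE: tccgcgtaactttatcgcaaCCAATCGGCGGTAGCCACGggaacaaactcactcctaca
Herpud1, chr8:94386297-94386407, plus strand, CARE and then ERSE-II: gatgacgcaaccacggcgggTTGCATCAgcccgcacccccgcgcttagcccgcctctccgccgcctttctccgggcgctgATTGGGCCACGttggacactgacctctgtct
Chac1, chr2:119351029-119351076, plus strand, CARE: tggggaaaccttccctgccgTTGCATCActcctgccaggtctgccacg
Asns, chr6:7693215-7693242, minus strand, CARE: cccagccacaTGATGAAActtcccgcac
Trib3, chr2:152344029-152344056, minus strand, CARE: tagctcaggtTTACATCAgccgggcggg

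The ERSE began 162 bases upstream of the start site in Calr, 145 in Canx, 126 in Creld2, 156 in Derl3 and 44 in Syvn1. In Herpud1, the only member with elements of both kinds, ERSE-II began 52 bases and CARE 112 bases upstream. CARE began 193 bases upstream in Chac1 and 23 bases upstream in Asns, and in Trib3 it began at base 15 of the transcript. For Asns, the GENCODE M21 annotation places the gene start at base 7693254 of chromosome 6, so there CARE lies downstream of the gene start. For Trib3, it places the start at base 152344032 of chromosome 2, so there CARE lies upstream of the gene. Calr, Derl3, Creld2, Chac1, Trib3 and the CARE of Herpud1 carried the element on the strand opposite to the gene.

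Across the genotypes, the sensor branch stood above the median gene by its branch median, the folding and secretion branches slightly below it, and the ATF4 targets went in opposite directions. A member was counted as higher or lower when its relative ratio was at least 1.5-fold and its interval lay on the same side of 0. By that rule, Xbp1 and Ppp1r15a were higher in AEG-1ΔMAC, 2 of 26 members, against 2.38% of all 6933 genes. No member was lower, against 2.77% of all genes. When the minimum was set at 1 CPM, Derl3, Trib3 and Chac1 were also higher, making 5 of 31 members against 3.22% of 11178 genes. Asns was then the 1 member that was lower, against 5.78% of all genes. The median relative log2 ratio of the 26 members was 0.02.

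**Figure D1:**
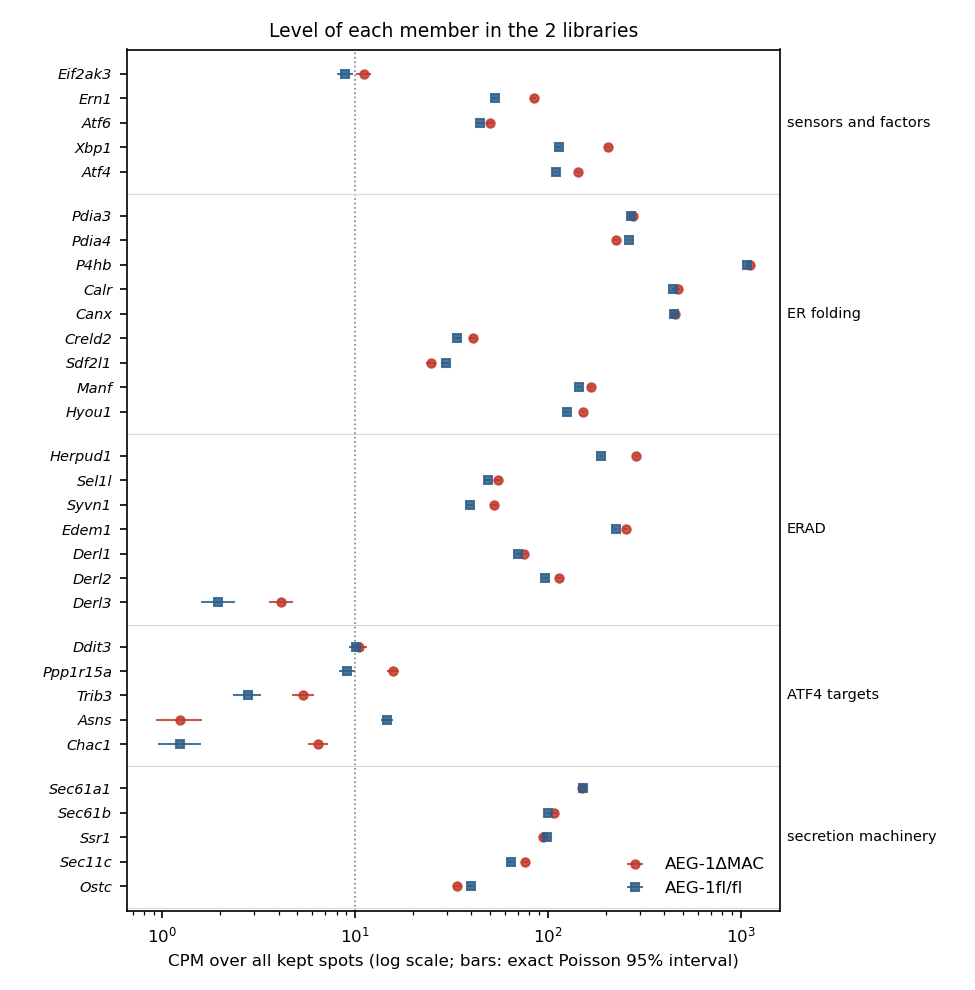
Level of each of the 31 members in CPM on a log axis, with AEG-1ΔMAC as red circles and AEG-1fl/fl as blue squares, grouped by branch; bars are exact Poisson 95% intervals and the dotted line marks 10 CPM. Most pairs nearly coincide, whereas Asns (1.23 against 14.7 CPM) and Chac1 (6.40 against 1.23 CPM) stand far apart in opposite directions.

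Among the sensors and their factors, Xbp1 was higher in AEG-1ΔMAC, and Ern1, the gene of its activating enzyme, lay just under 1.5-fold. Xbp1 had 9314 UMIs in AEG-1ΔMAC, or 205 CPM (201 to 209), and 5707 UMIs in AEG-1fl/fl, or 113 CPM (110.5 to 116). Its relative log2 ratio was 0.71 (0.66 to 0.76), a relative 1.63-fold, which was higher than in 98.3% of the genes with at least 10 CPM. The counts give 1 value per gene and do not separate spliced from unspliced Xbp1 mRNA. Ern1 stood at 84.2 CPM in AEG-1ΔMAC against 53.2 CPM in AEG-1fl/fl, a relative log2 ratio of 0.52 (0.44 to 0.59). Atf4, the transcription factor gene of the PERK arm, stood at 143 and 110.0 CPM (0.23, 0.18 to 0.28). Atf4 is regulated mainly at translation, which UMIs do not measure. Atf6 differed little from the median gene, at 49.8 and 44.2 CPM (0.03, -0.06 to 0.11). Eif2ak3, the PERK gene, had 504 and 446 UMIs, and its interval reached 0 (0.18, -0.01 to 0.36). The median over the 4 members of this branch with at least 10 CPM was 0.37.

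The folding branch lay near the median gene on both sides of 0. Of 9 members, none reached 1.5-fold in either direction, 3 lay above 0 and 6 below, with a median of -0.10. By definition, as many of all tested genes lie above 0 as below. Sdf2l1, a partner of the chaperone BiP, was furthest below, at 24.8 CPM in AEG-1ΔMAC against 29.4 CPM in AEG-1fl/fl (-0.39, -0.51 to -0.28). Pdia4, a disulfide isomerase, stood at 225 and 263 CPM (-0.37, -0.41 to -0.33). The calcium-binding lectin chaperones for glycoproteins lay close to the median gene, with Calr at 475 and 447 CPM (-0.06) and Canx at 453 and 451 CPM (-0.14). Likewise, the disulfide isomerases P4hb at 1110.3 and 1077 CPM and Pdia3 at 277 and 269 CPM both had a relative log2 ratio of -0.10. Above 0 lay Hyou1, an ER chaperone and nucleotide exchange factor, at 153 and 125 CPM (0.14, 0.09 to 0.19). Creld2, an isomerase-like ER protein, stood at 40.6 and 33.9 CPM (0.12, 0.02 to 0.21), and Manf, a secreted ER stress factor, at 168 and 145 CPM (0.07, 0.02 to 0.11). For Pdia3, P4hb, Calr and Canx, the CPM itself was slightly higher in AEG-1ΔMAC, and the sign below 0 comes from the comparison with the median gene. The same held for Derl1, Ddit3 and Sec61b, making 7 of 31 members.

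In ERAD, which carries misfolded proteins back to the cytosol, Herpud1 and Derl3 had the largest relative ratios of the branch. Herpud1, a membrane protein that organizes the degradation complex, had 287 CPM in AEG-1ΔMAC against 189 CPM in AEG-1fl/fl, with 0.46 (0.42 to 0.50) on the relative log2 scale, higher than in 96.2% of tested genes. Derl3, a derlin typical of secretory cells, had only 188 and 98 UMIs, or 4.14 CPM (3.57 to 4.77) and 1.95 CPM (1.58 to 2.37). Its relative log2 ratio was 0.94 (0.58 to 1.31). The ubiquitin ligase Syvn1 stood at 52.4 and 39.6 CPM (0.26, 0.17 to 0.35). Its scaffold Sel1l stood at 54.7 and 48.7 CPM (0.02, -0.06 to 0.10). Edem1, which marks glycoproteins for removal, stood at 252 and 224 CPM (0.02, -0.01 to 0.06). The ubiquitous derlin Derl2 lay slightly above 0 (0.09, 0.04 to 0.15), and the interval of Derl1 held 0 (-0.04, -0.11 to 0.02). The median over the 6 members with at least 10 CPM was 0.06.

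The ATF4 targets held the widest differences of the set, and they did not share a direction. Asns, which makes asparagine from aspartate, had 56 UMIs in AEG-1ΔMAC, or 1.23 CPM (0.931 to 1.60), and 739 UMIs in AEG-1fl/fl, or 14.7 CPM (13.6 to 15.8). Its level was 11.9-fold lower in AEG-1ΔMAC by CPM, and its relative log2 ratio was -3.72 (-4.14 to -3.33). Chac1, which degrades glutathione, ran the other way, with 291 UMIs or 6.40 CPM (5.69 to 7.18) in AEG-1ΔMAC and 62 UMIs or 1.23 CPM (0.945 to 1.58) in AEG-1fl/fl. That was a relative log2 ratio of 2.23 (1.83 to 2.65), or 5.20-fold by CPM. Trib3, a pseudokinase that restrains insulin signaling, had 244 and 139 UMIs (5.37 and 2.76 CPM) and a relative log2 ratio of 0.81 (0.51 to 1.12). Ppp1r15a, whose product GADD34 returns eIF2α to its unphosphorylated state, stood at 15.7 and 9.08 CPM (0.64, 0.47 to 0.81). Ddit3, encoding the transcription factor CHOP, showed 10.5 and 10.1 CPM (-0.09, -0.27 to 0.10). A second, overlapping Ddit3 identifier gave 9.37 and 9.76 CPM, and its reads may be split with the first, so the Ddit3 level is uncertain. Asns, Chac1 and Trib3, the ATF4 targets whose printed promoters hold CARE, lay at both ends of the range.

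Of the 5 secretion members, 4 lay below the median gene and Sec11c lay above it. Ostc, a subunit of the oligosaccharyltransferase that adds N-glycans, was lowest, at 33.8 CPM in AEG-1ΔMAC against 39.8 CPM in AEG-1fl/fl (-0.38, -0.48 to -0.28). Ssr1, of the translocon-associated complex, stood at 93.9 and 98.6 CPM (-0.22, -0.28 to -0.16). The channel subunits stood at 149 and 152 CPM for Sec61a1 (-0.17, -0.22 to -0.12) and at 108 and 100.2 CPM for Sec61b (-0.04, -0.09 to 0.02). Sec11c, a catalytic subunit of signal peptidase, stood at 75.9 and 64.0 CPM (0.10, 0.03 to 0.17). The branch median was -0.17.

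**Figure D2:**
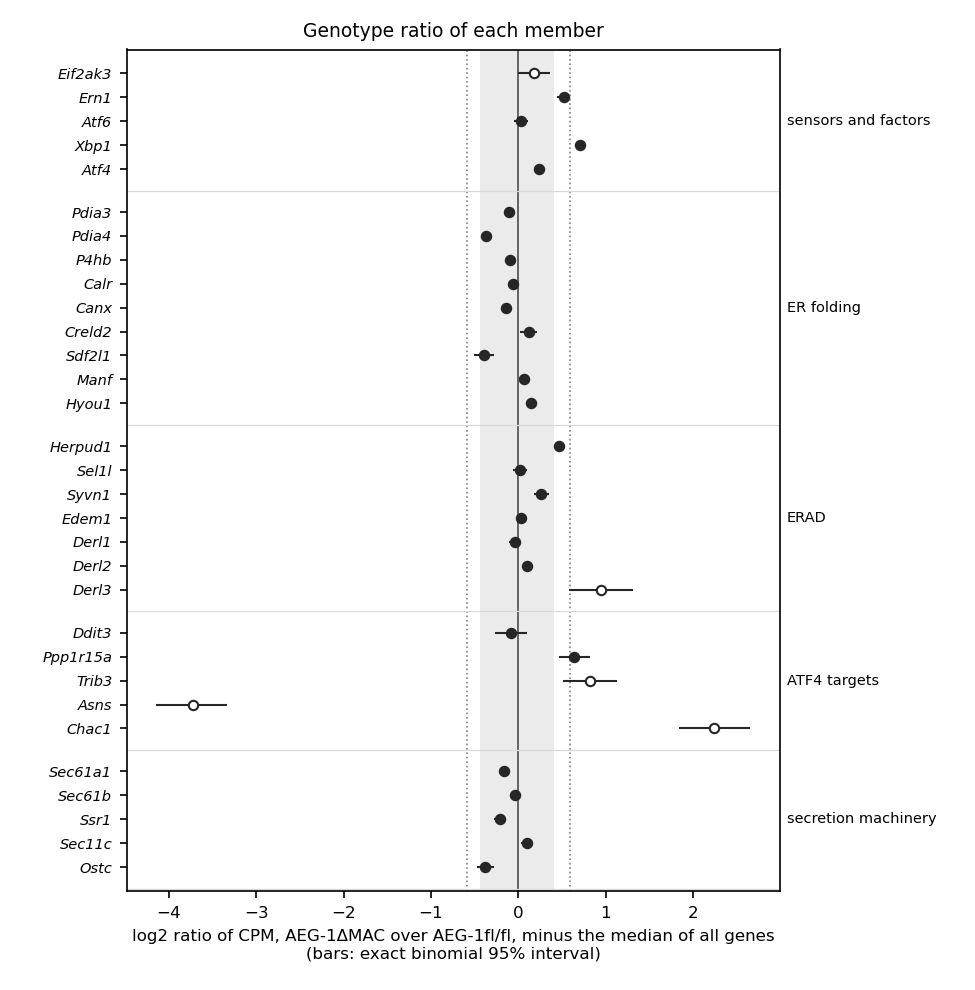
Relative log2 ratio of each member, AEG-1ΔMAC over AEG-1fl/fl, with exact binomial 95% intervals; filled points have a mean of at least 10 CPM, open points less, dotted lines mark 1.5-fold and the grey band holds the middle 90% of all tested genes (-0.43 to 0.40). Xbp1 (0.71), Ern1 (0.52), Herpud1 (0.46), Ppp1r15a (0.64), Derl3 (0.94) and Trib3 (0.81) lie right of the band, Asns (-3.72) and Chac1 (2.23) lie far out on opposite sides, and the folding and secretion branches stay inside it.

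Further genes of each pathway were taken from wider lists of known roles. Their counts at 10 CPM stand beside 2.38% of all genes that were at least 1.5-fold higher and 2.77% that were lower. Of 20 other folding genes with at least 10 CPM, none reached 1.5-fold, with a median of -0.13 and a range from the peroxiredoxin Prdx4 (184 and 236 CPM, -0.50) and Fkbp11 (-0.50) to Txndc11 (0.32) and the ER oxidase Ero1lb (61.3 and 39.3 CPM, 0.49). Of 19 other ERAD genes, none reached 1.5-fold, with a median of 0.05, from Rnf139 (-0.17) and Erlec1 (-0.13) to Ube2g2 (0.19). Of 17 other ATF4 targets, 2 were lower by at least 1.5-fold and none higher, with a median of -0.05. Those lower were Gdf15, a stress hormone gene, at 7.88 CPM in AEG-1ΔMAC against 21.1 CPM in AEG-1fl/fl (-1.57), and Pck2, the mitochondrial carboxykinase, at 8.23 and 12.0 CPM (-0.69). The transaminase Gpt2 (82.5 and 58.3 CPM, 0.35) and the tRNA ligase Aars (0.23) were at the upper end. With a minimum of 1 CPM, 5 of 29 were lower, against 5.78% of all genes, among them the hormone gene Fgf21 (162 and 509 UMIs, -1.65). The 2 that were higher, against 3.22% of all genes, were Jdp2 (0.68) and Atf3 (0.61).

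Of 26 other secretion genes, Tusc3 was lower by at least 1.5-fold (9.28 and 14.6 CPM, -0.80), the median was -0.10, and Ost4 (-0.32), Srprb (0.17) and Srp68 (0.18) marked the rest of the range. Vesicle transport from ER to Golgi had a median of 0.05 over 23 genes, none past 1.5-fold, from Kdelr1 (-0.27) and Sar1b (-0.27) to Sec24d (0.28) and Sec23b (0.37). Other sensors and regulators had a median of 0.08 over 14 genes, none past 1.5-fold, from Nfe2l2 (-0.29) and Mbtps2 (-0.27) to Creb3l2 (0.21) and the heme-regulated eIF2α kinase Eif2ak1 (77.3 and 56.4 CPM, 0.31). Among 8 Hsp and Dnaj genes of the ER, with a median of 0.07, the chaperones Hspa5 (BiP, 579 and 474 CPM, 0.14) and Hsp90b1 (867 and 782 CPM, 0.00) lay near the median gene. Dnajb9 was the highest, at 26.5 and 16.5 CPM (0.54, 0.41 to 0.67), whereas Dnajc3 (0.07), Dnajb11 (-0.04) and Dnajc10 (-0.18) were not raised alike.

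To ask where in the lobule the members were expressed, spots of each library were ranked from the periportal end (zone 1) to the pericentral end (zone 3) with the zone markers of the study and divided into 3 equal parts. Zonation was the log2 ratio of CPM, zone 3 part over zone 1 part, relative to the median gene of that library. Most landmark genes outside the index separated clearly on this scale. The pericentral Gulo was at 2.20 in AEG-1ΔMAC against 2.24 in AEG-1fl/fl and the periportal Aldh1b1 at -2.26 and -2.01. The periportal Ass1 (-0.38 and -0.15) separated little, and Apoa4 only in AEG-1ΔMAC (-1.45 and -0.07). Members were far less zoned than most of these landmarks. None of the 26 was at least 1.5-fold toward zone 3 in both libraries, against 1.52% of all genes, and none toward zone 1, against 1.27%. In both libraries, the interval lay on the zone 1 side for 6 members, Ern1, Xbp1, Pdia3, Calr, Manf and Herpud1, against 10.1% of all genes. With spots thinned to 10000 UMIs, Ern1 in AEG-1ΔMAC was at 0.01 and so no longer among them. The interval lay on the zone 3 side in both libraries for no member, against 11.1% of all genes.

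Herpud1 had the most periportal level that both libraries shared. It fell by 0.44 on this scale in AEG-1ΔMAC (-0.50 to -0.38), from 326 CPM in the zone 1 part through 281 to 255 CPM in the zone 3 part. In AEG-1fl/fl, it went from 212 through 183 to 172 CPM (-0.38, -0.45 to -0.31). Xbp1 had the same orientation with a smaller size, at 217, 203 and 194 CPM in AEG-1ΔMAC (-0.24, -0.32 to -0.17) and 123, 112 and 105 CPM in AEG-1fl/fl (-0.30, -0.40 to -0.21). Ern1 stood at 88.2 and 82.1 CPM at the ends in AEG-1ΔMAC (-0.19) and at 56.3 and 50.6 CPM in AEG-1fl/fl (-0.23). For these genes, the levels of the libraries differed at each position and the slopes overlapped.

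A group of folding and entry genes was more periportal in AEG-1ΔMAC than in AEG-1fl/fl. The intervals of the libraries did not overlap for 5 of 26 members, Hyou1, Manf, Sec61a1, P4hb and Calr, against 8.16% of all genes, and each was further toward zone 1 in AEG-1ΔMAC, a direction in which 4.64% of all genes were apart. Hyou1 showed this most, with 174 CPM in the zone 1 part and 135 CPM in the zone 3 part in AEG-1ΔMAC (-0.45, -0.53 to -0.36) and 125 and 124 CPM in AEG-1fl/fl (-0.09, -0.18 to 0.00). Manf went from 188 to 146 CPM in AEG-1ΔMAC (-0.46) and from 152 to 139 CPM in AEG-1fl/fl (-0.20). For Sec61a1, the values were 160.1 and 142 CPM (-0.26) against 151 and 153 CPM (-0.05). Its difference depended on the setting, since its zonation ranged from -0.36 to -0.17 in AEG-1ΔMAC and from -0.26 to 0.03 in AEG-1fl/fl. The ranges of Calr also overlapped (-0.32 to -0.12 and -0.15 to -0.03). P4hb (-0.14 against -0.02) and Calr (-0.21 against -0.10) differed by less, and their high counts give narrow intervals. Creld2 (-0.32 against 0.01) and Ostc (-0.32 against 0.02) had similar differences with intervals that overlapped slightly.

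Of the 26 members, 20 were further toward zone 1 in AEG-1ΔMAC, where 50.2% of all genes were. The periportal landmark genes outside the index moved alike, 8 of 8 being further toward zone 1 in AEG-1ΔMAC, as did 4 of 6 pericentral landmarks, and the part of a differing spread of the index in the members' slopes was not tested. The median zonation in AEG-1ΔMAC and AEG-1fl/fl was -0.14 and -0.09 for folding genes, -0.13 and -0.05 for ERAD, -0.14 and -0.15 for sensors, and -0.05 and 0.02 for secretion machinery. Because the median gene leaned toward zone 3, a value slightly below 0 does not mean a higher CPM in the zone 1 part. Sec11c, for example, went from 73.1 to 76.2 CPM in AEG-1ΔMAC and from 62.7 to 65.1 CPM in AEG-1fl/fl (both -0.03 or nearer 0).

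**Figure D3:**
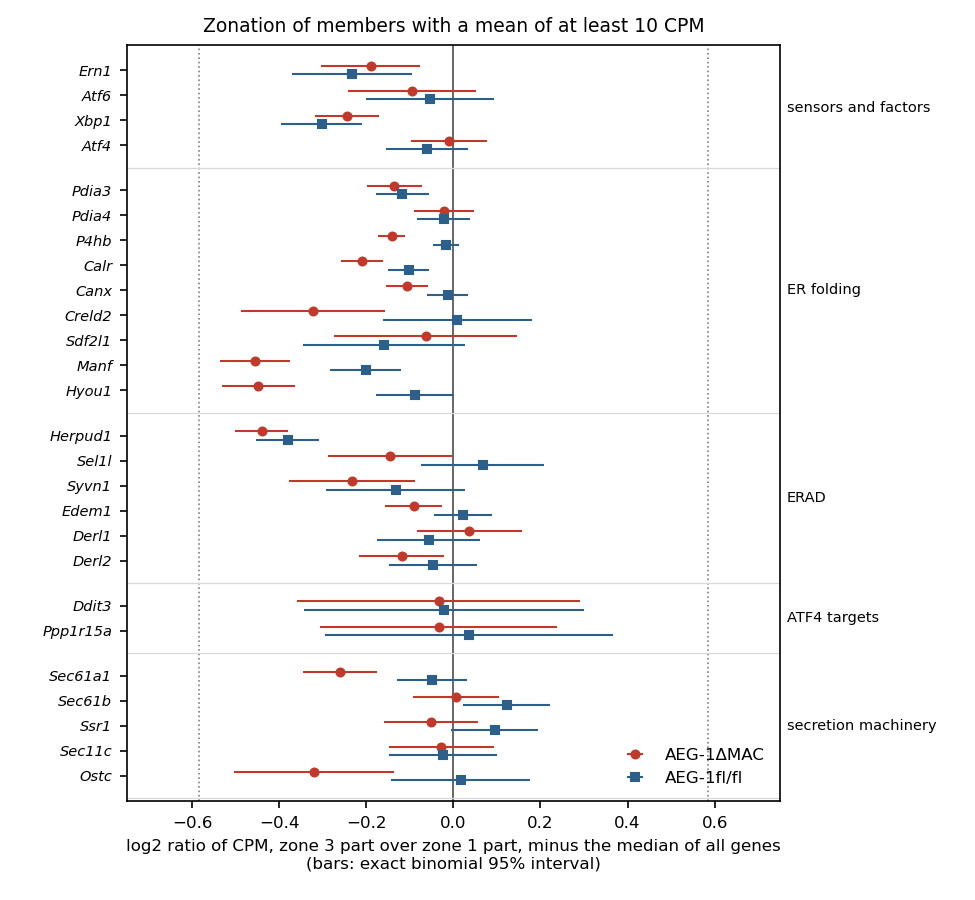
Zonation of the 26 members with at least 10 CPM, as log2 ratio of the zone 3 part over the zone 1 part relative to the median gene, in AEG-1ΔMAC (red circles) and AEG-1fl/fl (blue squares), with exact binomial 95% intervals; dotted lines mark 1.5-fold. Herpud1 lies left of 0 in both libraries (-0.44 and -0.38), Hyou1 mainly in AEG-1ΔMAC (-0.45 and -0.09), and no member reaches 1.5-fold.

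In AEG-1fl/fl, Asns was higher toward zone 3, at 11.2 CPM in the zone 1 part, 14.6 CPM in the middle and 18.4 CPM in the zone 3 part (0.64, 0.37 to 0.91). Sec61b there had a smaller slope the same way, from 94.2 to 108 CPM (0.12, 0.02 to 0.22). In AEG-1ΔMAC, Asns stood at 1.26, 1.17 and 1.27 CPM on 56 UMIs, and a slope of that size was not detectable at this depth (-0.08, -1.08 to 0.92). Chac1 stood at 6.62, 6.12 and 6.46 CPM in AEG-1ΔMAC (-0.12, -0.54 to 0.29). In AEG-1fl/fl, it stood at 0.966, 1.09 and 1.65 CPM, with 16 and 27 UMIs in the end parts, and its slope was not determined at this depth (0.70, -0.25 to 1.69).

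When the genotypes were compared within each part of the lobule, the differences of the leading members were present from end to end. Xbp1 had relative log2 ratios of 0.69 in the zone 1 part, 0.70 in the middle and 0.74 in the zone 3 part. Herpud1 had 0.48, 0.46 and 0.42, and Ern1 had 0.51, 0.48 and 0.55. Asns went from -3.28 through -3.80 to -4.01 and Chac1 from 2.64 through 2.33 to 1.82, with intervals of the end parts that overlapped for both. Hyou1, in contrast, was above the median gene in the zone 1 part (0.35, 0.26 to 0.43) and level with it in the zone 3 part (-0.02, -0.10 to 0.07). Ostc was below the median gene in all 3 parts, at -0.25 (-0.42 to -0.08) in the zone 1 part, -0.32 (-0.48 to -0.15) in the middle and -0.59 (-0.77 to -0.42) in the zone 3 part, and the intervals of the end parts met. Of the 26 members, 19 kept the same side of 0 in all 3 parts, 8 above and 11 below, where 63.9% of all genes kept a side.

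**Figure D4:**
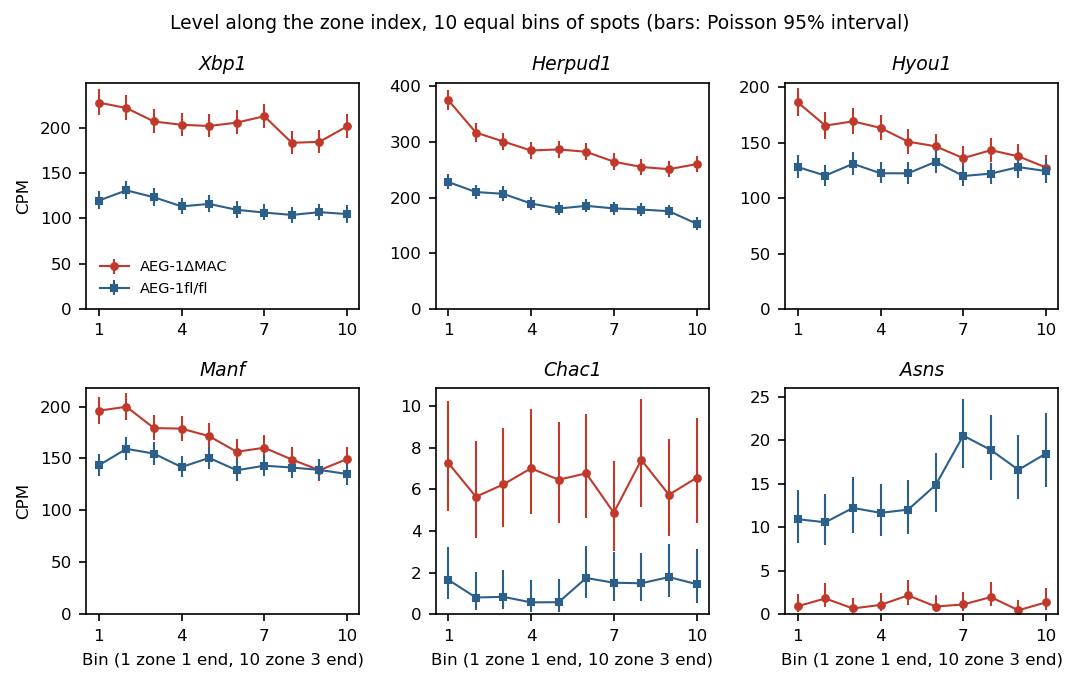
CPM of 6 members in 10 equal bins of spots along the zone index, from the zone 1 end (bin 1) to the zone 3 end (bin 10), in AEG-1ΔMAC (red) and AEG-1fl/fl (blue), with Poisson 95% intervals. Xbp1 and Herpud1 run apart and slope alike, and Asns is near 0 in AEG-1ΔMAC throughout. Hyou1 is apart at the zone 1 end and meets at the zone 3 end (187 and 128 CPM in bin 1, 128 and 124 CPM in bin 10). Manf comes closer toward the zone 3 end (196 and 143 CPM in bin 1, 149 and 135 CPM in bin 10).

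Spots rich in lipid droplets, in Kupffer cells or in bile ducts and vessels held no difference of 1.5-fold in a member that both libraries shared. Within each zone part, the 10% of spots with the highest CPM of Plin2 (a lipid droplet protein), of Kupffer cell markers, or of bile duct and vessel markers were set against the other spots. None of the 6932 genes tested (0%) was at least 1.5-fold higher in Plin2-rich spots of both libraries. In Kupffer-rich spots, 0.736% of all genes were, and in duct-rich and vessel-rich spots 1.31%, but none of the 26 members in either. Xbp1 stood at 209 CPM in Kupffer-rich spots and 204 CPM in other spots of AEG-1ΔMAC (0.05, -0.05 to 0.15). In AEG-1fl/fl, it stood at 112 and 114 CPM (0.00, -0.14 to 0.14). In AEG-1fl/fl alone, Sdf2l1 stood at 20.0 CPM in Kupffer-rich spots and 30.3 CPM elsewhere (-0.57, -0.91 to -0.26), whereas AEG-1ΔMAC had 27.1 and 24.6 CPM (0.16, -0.13 to 0.44). Ppp1r15a in duct-rich and vessel-rich spots of AEG-1fl/fl rested on 68 UMIs (13.4 against 8.60 CPM, 0.57, 0.18 to 0.95), and in AEG-1ΔMAC it stood at 16.9 and 15.5 CPM. The share of all genes apart in 1 library only is not given here, so such values are not a result about the members.

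Plasma cells express Xbp1, Derl3, Creld2 and Sdf2l1 strongly, and their 8 marker genes went both ways between the sections. Jchain (1.83 against 0.696 CPM), Igha (0.924 against 0.417 CPM) and Tnfrsf17 (2 against 1 UMIs) stood higher in AEG-1ΔMAC. Igkc (14.3 against 21.7 CPM), Ighm (10.7 against 17.2 CPM), Iglc1, Mzb1 and Pou2af1 stood lower, and the 8 summed to 30.2 against 45.7 CPM. Immunoglobulin genes such as Igkc and Ighm are also expressed by B cells, whose 4 markers summed to 8.38 and 17.5 CPM. Without the spots that held any plasma cell marker, which were 38.0% of AEG-1ΔMAC spots and 53.2% in AEG-1fl/fl, Xbp1 had a relative log2 ratio of 0.73, Derl3 0.75, Asns -3.78 and Chac1 2.28. Kupffer cell markers summed to 561 and 541 CPM over 5 genes, a relative log2 ratio of -0.09. Of the 5, 4 lay below the median gene, 3 of them with intervals below 0. These were Marco (13.9 and 36.1 CPM, -1.52), Vsig4 (-0.22) and Clec4f (-0.10). Of 5 markers of pancreatic acinar cells, which are rich in rough ER, Prss2 and Pnlip were at 0 UMIs in both libraries, Cpa1 had 1 and 1 and Ctrb1 4 and 1. Cela1 had 306 and 234 UMIs, nearly the whole of the list's sum of 6.84 and 4.69 CPM.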

How the data were processed

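Formalin-fixed mouse liver sections were profiled by the authors with the 10x Visium probe-based assay, reads were processed with Space Ranger 2.0.1 on mm10 (the labels also name Seurat 4.3.0), and the deposited matrices hold raw UMI counts per gene and spot with no normalization. The members and lists were chosen with earlier results of these data known. Groups came from the genotype labels. Spots with over 50000 UMIs, under 100 genes or over 7000 genes were removed, as in the study, which took out 9 and 3 spots. The libraries shared 1782 spot barcodes, since capture areas of a slide use the same barcode list. UMIs were summed over spots and scaled to CPM. Ratios carry exact conditional binomial (Clopper-Pearson) intervals and CPM exact Poisson intervals, at 95%. With 1 library per genotype, no test was run. At 10 CPM, a gene had 455 and 503 UMIs, and 3 UMIs stood for 0.0660 and 0.0596 CPM. A count of 0 was not raised to a floor, and a log2 ratio with it was left without a value. Calls required a mean of at least 10 CPM and a relative ratio of at least 1.5-fold.

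Named genes were all members, Fgf21, Jdp2 and Atf3 and, of each wider list, the 2 largest and the 2 smallest relative ratios at 10 CPM or more. Of the genes selected in this way, 1 is not reported here. The zone index was the mean scaled value of Cyp2e1, Cyp1a2 and Oat minus that of Pck1, Hal, Gls2, Cyp2f2, Hsd17b13 and Arg1, computed within each library. Gene symbols and identifiers are those of the files, and promoter coordinates are those of RefSeq on GRCm38.p6. Python 3.11.15, numpy 2.4.6, scipy 1.17.1, pandas 2.3.3 and R 4.3.3 with edgeR 4.0.16 (TMM factors only) were used, and the ratios, their intervals and the call rule were tested on simulated counts.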

Additional observations from a re-analysis of the deposited data

How the results depend on the processing

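Each member's ratio was recomputed under 10 settings and its zonation under 6. With CPM ratios not taken relative to the median gene, the ratio of every gene rose by 0.15. The branch medians became 0.52 for sensors, 0.044 for folding, 0.20 for ERAD and -0.022 for secretion, and 4 members were at least 1.5-fold higher (with Ern1 and Herpud1). With a minimum of 1 CPM, the medians became 0.23 for sensors and 0.64 for ATF4 targets, with 5 members higher and 1 lower (3.22% and 5.78% of all genes). With a minimum of 50 CPM, 1 member was higher (Xbp1), and at 2-fold 0 were. Apart from the 1 CPM minimum, shares of all genes under the changed rules of this section are not given here. Those counts are therefore not a result about the members. In the outer 10% of spots at each end, 1 member, Herpud1, was zoned toward zone 1 in both libraries by at least 1.5-fold. With zonation not taken relative to the median gene, every value rose by 0.087 in AEG-1ΔMAC and by 0.076 in AEG-1fl/fl. TMM, median-of-ratios factors and leaving out the 50 most abundant genes moved the median of all genes to 0.02, 0.02 and 0.00, and left relative values as they were by construction. Over all 10 settings, Xbp1 stayed between 0.69 and 0.85, Asns between -3.92 and -3.58, and Chac1 between 2.22 and 2.38. In thinned spots, the zonation of Ern1 in AEG-1ΔMAC was 0.01, which ended its place on the zone 1 side there. No paired analysis was possible because each genotype had 1 library. For Asns, Chac1, Trib3 and Derl3, depth limits zonation, since a zone part held from 16 to 300 UMIs.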
